A study of Mus musculus with 96 samples.

Results

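MicroRNA genes lay among the regions marked by H3K4me3 or H3K27me3 or bound by Suz12 in sorted hippocampal nuclei of mice with and without the DNA glycosylases Ogg1 and Mutyh. A peak was taken as a microRNA peak when the authors had annotated it to a gene symbol that starts with Mir and a digit, or with Mirlet7. These were 334 of the 22815 peaks in the 6 deposited tables, and they carried 145 microRNA symbols. The annotation gives each peak its nearest gene start, and a peak that it classed as promoter was called a promoter peak. MicroRNA promoter peaks lay up to 1940 bp from that start, and the nearest microRNA peak classed otherwise lay at 2005 bp. On this basis 111 of the 334 were promoter peaks, 109 lay farther off but inside some transcript, and 114 were distal intergenic windows whose microRNA is only the nearest annotated gene.

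The nuclei came from hippocampi of 6-month-old mice on a C57BL/6N background, and each library was made from nuclei pooled over several animals of a genotype. Nuclei were sorted by the neuronal nuclear protein NeuN into a neuronal NeuN+ and a mostly non-neuronal NeuN- fraction. Each antibody and fraction gave 1 table of 12 libraries, 3 each from wild type (WT), Mutyh-/-, Ogg1-/- and double-knockout (Mutyh-/-xOgg1-/-, DKO) mice. The comparisons ask whether loss of either glycosylase, or of both, altered the marks at these places. Values are reads per window of mostly 401 bp divided by a factor for each library, and each table was scaled on its own, so levels in different tables are set side by side only as a description.

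The libraries held between 6652 and 548706 reads in peaks, fewest in Suz12 NeuN+ and most in H3K4me3 NeuN+, and the median window of a library held between 1 and 43 reads. Of 8 neuron markers, 6 had an H3K4me3 promoter peak in NeuN+ and 0 in NeuN- nuclei, while 2 of 14 glial markers had one in NeuN+ (Slc1a3, Mbp) and 1 of 14 in NeuN- (Olig1). The knockouts were not checked by their own genes. The Mutyh gene had no peak, and Ogg1 had 1, in H3K4me3 NeuN+, whose values were not examined here. In Suz12 NeuN+, Mutyh-/- replicate 1 and Ogg1-/- replicate 1 stood apart from the other libraries, with median rank correlations across peaks of 0.03 and 0.15 to the rest.

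MicroRNAs are cut from longer transcripts, which have promoters like those of other genes and are often long noncoding host genes or the introns of coding genes. A mature microRNA binds mRNAs chiefly through its seed, the bases from position 2 to 8 at the 5′ end, and lowers their translation and stability. H3K4me3 sits at promoters that are active or ready to be. H3K27me3 is set by Polycomb repressive complex 2, of which Suz12 is a core subunit, and keeps developmental genes silent in cells that do not use them. Ogg1 and Mutyh are base-excision repair enzymes: Ogg1 removes oxidised guanine from DNA, and Mutyh removes adenine that was paired with it.

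Of the 145 symbols, 121 had a mature sequence in the RefSeq table used here (GRCm38). The following mature products belong to the listed neuronal genes with a promoter peak (Mir9-2 and Mir9-3, Mir129-2, Mir212), to members with a call against WT (Mir101c, Mir3093, Mir450b, Mir7-2) and are given 5′ to 3′ with the seed in capitals. Mir9-2, Mir9-3, Mir129-2 and Mir212 were picked for this display after their values were seen. The 13 sequences have 13 different seeds, and miR-9-5p and miR-9-3p each come from both the Mir9-2 and the Mir9-3 locus.
miR-101c: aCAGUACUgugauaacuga
miR-129-2-3p: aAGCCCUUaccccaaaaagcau
miR-129-5p: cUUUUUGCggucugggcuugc
miR-212-5p: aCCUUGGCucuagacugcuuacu
miR-212-3p: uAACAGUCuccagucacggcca
miR-3093-5p: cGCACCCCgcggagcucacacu
miR-3093-3p: uGUGGACAccgugggagguugg
miR-450b-3p: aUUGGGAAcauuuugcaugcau
miR-450b-5p: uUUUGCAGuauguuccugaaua
miR-7a-5p: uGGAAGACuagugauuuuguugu
miR-7a-2-3p: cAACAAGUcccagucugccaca
miR-9-5p: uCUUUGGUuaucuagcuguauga
miR-9-3p: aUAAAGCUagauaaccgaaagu

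The windows that carry the results below are shown as the central 300 bases of the peak, plus strand, GRCm38/mm10. The Mir101c window on chromosome 9 is the place where a knockout difference passed the adjusted test, and its capitals mark the 9-base word TTCTCATTT, which recurs through the neighbouring windows.
Mir101c, chr9:3035905-3036204: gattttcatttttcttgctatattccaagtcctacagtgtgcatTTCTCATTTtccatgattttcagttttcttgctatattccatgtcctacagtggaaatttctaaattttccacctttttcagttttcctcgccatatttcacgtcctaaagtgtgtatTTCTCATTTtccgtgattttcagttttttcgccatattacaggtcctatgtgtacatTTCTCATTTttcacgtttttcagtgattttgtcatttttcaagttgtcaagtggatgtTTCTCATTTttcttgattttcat
The Mir124a-3 window lies 911 bp upstream of that gene and carried H3K27me3 in NeuN- nuclei, the Mir155hg window was a peak with all 3 antibodies in NeuN+ nuclei, and in both the capitals mark CG dinucleotides, of which they hold 40 and 44.
Mir124a-3, chr2:180892780-180893079: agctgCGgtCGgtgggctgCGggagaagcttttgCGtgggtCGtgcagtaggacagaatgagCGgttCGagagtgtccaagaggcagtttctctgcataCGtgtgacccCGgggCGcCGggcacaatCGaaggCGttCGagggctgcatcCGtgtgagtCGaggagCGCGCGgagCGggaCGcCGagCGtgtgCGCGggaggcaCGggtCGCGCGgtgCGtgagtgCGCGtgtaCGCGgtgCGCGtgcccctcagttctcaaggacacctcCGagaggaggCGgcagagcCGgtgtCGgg
Mir155hg, chr16:84703201-84703500: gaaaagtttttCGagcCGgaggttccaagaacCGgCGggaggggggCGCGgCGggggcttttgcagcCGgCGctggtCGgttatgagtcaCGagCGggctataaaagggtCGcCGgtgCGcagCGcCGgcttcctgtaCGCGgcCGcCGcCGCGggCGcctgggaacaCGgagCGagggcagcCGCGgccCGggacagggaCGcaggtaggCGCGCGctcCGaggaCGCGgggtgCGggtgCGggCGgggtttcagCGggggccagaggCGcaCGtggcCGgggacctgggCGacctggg
The Mir101c stretch is AT-rich, with 32.7% G and C, against 67.7% for Mir124a-3 and 74% for Mir155hg.

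A smaller share of the H3K4me3 and H3K27me3 peaks annotated to microRNAs than of the other peaks lay at promoters, a description with no test. H3K4me3 held 120 of them in NeuN+ (72 promoter, 30 gene body, 18 distal) and 33 in NeuN- nuclei (16, 7 and 10). H3K27me3 held 101 in NeuN+ (11, 27 and 63) and 22 in NeuN- nuclei (4, 7 and 11), and Suz12 held 26 (6, 15 and 5) and 32 (2, 23 and 7). Most gene body and distal H3K4me3 or Suz12 windows in the NeuN- fraction belonged to a single block at Mir101c, described below. Without that block, 63.2% of microRNA peaks in H3K4me3 NeuN+ were at promoters, against 93.5% of all other peaks, and in H3K27me3 NeuN+ the shares were 11.2% and 26.9%. The promoter shares in NeuN- nuclei were 65.2% against 93.9% for H3K4me3 and 21.1% against 48.1% for H3K27me3.

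**Figure D1:**
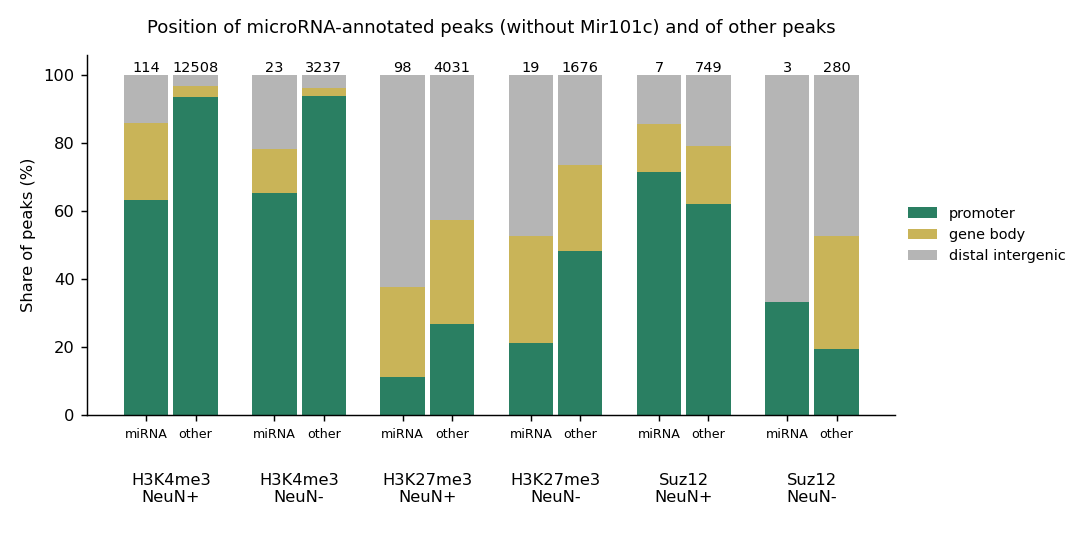
Share of peaks (percent) at promoters, inside transcripts and in distal intergenic sequence, for microRNA peaks without the Mir101c block and for all other peaks, in each of the 6 tables. The microRNA bars hold fewer promoter peaks in H3K4me3 and H3K27me3 in both fractions, while the Suz12 bars rest on only 7 and 3 microRNA peaks.

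Many of the promoter calls were shared with a coding gene. Of the 72 H3K4me3 NeuN+ promoter peaks, 34 (47.2%) lay within 1 kb of the start of a coding gene, whereas 95.8% of the other promoter peaks in that table did. The most enriched of them, Mir6538 at chr12:26414814-26415214, lay inside Rnf144a close to its start, with values of 36, 25.4 and 44.2 in WT and a mean of 35.6 over the 12 libraries. In base composition these promoters were like the others: the median G and C content was 66.6% against 67.1% and the median number of CpG sites was 34 against 35. Their levels were close too, with a median of the peak means of 20.7 against 24.3. Of the promoter peaks with a placed hairpin, 32 of 73 held that hairpin inside the window, and the median distance was 260 bp. None of the other placed windows outside the Mir101c block held it, and their median distance was 19.7 kb and their largest 613 kb.

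H3K4me3 in NeuN+ nuclei marked promoters of the microRNAs known from neurons. Of 27 listed neuronal microRNA symbols, 11 had a peak and these held 17 peaks, 8 of them at promoters. In NeuN- nuclei only 1 of the 27 symbols, Mir129-1, had an H3K4me3 peak, and it was not at a promoter. The NeuN- table is smaller (3270 peaks against 12628) and shallower, and the part of this in the difference was not tested. Only 3 of 24 listed glial, immune or vascular symbols had a peak in NeuN+ (Mir155hg at its promoter, Mir146b and Mir23a) and none had one in NeuN- nuclei. Among 64 broadly expressed symbols 10 had one in NeuN+ nuclei, 5 with a promoter peak, and 3 had one in NeuN- nuclei (Mir17, Mir30a, Mir30d). None of 44 symbols from the imprinted Dlk1-Dio3 cluster had a peak in any table.

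The miR-124 genes, the source of the most abundant microRNA of neurons, had 4 of these promoter peaks. The Mir124a-3 promoter (chr2:180893774-180894174) had values of 24.4, 17.6 and 17.2 in WT, 9.81, 17.5 and 19.3 in Mutyh-/-, 33.3, 11.3 and 31.5 in Ogg1-/-, and 4.51, 25.7 and 20.5 in DKO. The host gene Mir124-2hg had a pair of peaks, of which chr3:17794402-17794802 reached 28.3, 16.6 and 19.4 in WT and 13.5, 25.7 and 28.8 in DKO. Every knockout overlapped WT at both places, and the lowest and highest libraries came from Ogg1-/- and DKO. The other Mir124-2hg peak and the Mir124a-1hg peak were lower, with means of 9.66 and 11.1.

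Mir9-2 and Mir9-3, which serve neural progenitors and neurons, lay near the floor of the table. Mir9-2 (chr13:83738365-83738765) had 2.57, 11.7 and 9.69 in WT and a mean of 8.52, and Mir9-3 (chr7:79503445-79503845) had 0, 4.88 and 5.38 and a mean of 4.34. Mir212, which with its neighbour Mir132 is induced by neuronal activity, was higher at chr11:75172891-75173291, with 19.3, 14.6 and 19.4 in WT, 12, 14.7 and 21.9 in Mutyh-/-, 9.52, 12.3 and 20.8 in Ogg1-/-, and 13.5, 20.9 and 11.4 in DKO. Mir129-2 (chr2:94241753-94242153) had 1.29, 6.83 and 8.62 in WT and a mean of 8.69. At each of these promoters the knockouts overlapped WT, and replicates of a genotype were often severalfold apart.

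Promoters of microRNAs with wide or non-neuronal use were marked in NeuN+ nuclei as well. Mir17, the leading member of the miR-17-92 cluster of dividing cells, had 20.6, 16.6 and 26.9 in WT, 16.3, 34 and 37.7 in Mutyh-/-, 27.4, 17.4 and 35.4 in Ogg1-/-, and 22.6, 31.4 and 28 in DKO (chr14:115041331-115041731). Mirlet7i, of the let-7 family that acts in developmental timing, had a mean of 22.6 and Mir34b, a p53 target, a mean of 16.3. Mir203, known from skin epithelium, had 18, 12.7 and 12.9 in WT and a mean of 17.5 (chr12:112130358-112130758), and it was the only one of 23 epithelial, muscle or sensory symbols with an H3K4me3 peak. Mir125b-2 and Mir99ahg had means of 9.34 and 4.93. Over the 15 listed promoter peaks the means spanned 4.34 to 26.2, with Mir9-3 the lowest and Mir17 the highest.

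No difference from WT was called at these 15 promoter peaks. A differentially enriched region (DER) was called at an unadjusted p below 0.05 with a log2 fold change beyond 0.5 in either direction, in limma fits over all peaks of a table. The 45 log2 fold changes on log2(value + 1) ran from -1.48 to 1.69 with standard errors of 0.44 to 1.25, and the lowest adjusted limma p was 0.9998. The 8 neuronal peaks ran from -0.94 to 1.27. At the larger of these standard errors, changes well over 1 log2 unit go undetected, as the uncalled -1.48 and 1.69 show.

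**Figure D2:**
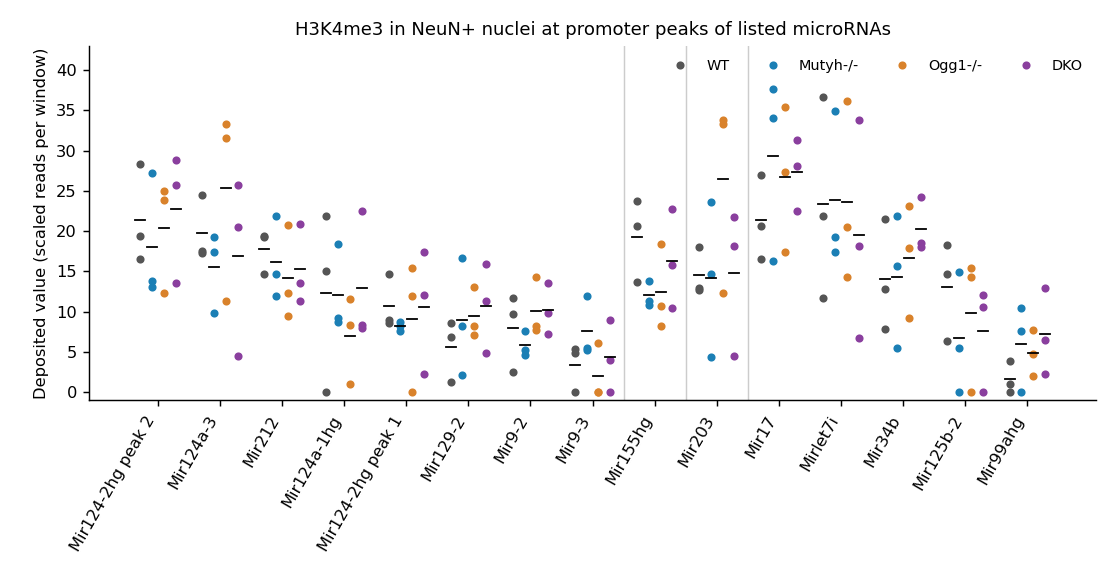
H3K4me3 value in each NeuN+ library at the 15 promoter peaks of listed microRNAs, 4 genotypes with 3 libraries each, bars at the mean. The genotypes overlap at every promoter, and the highest means are those of Mir17 and Mirlet7i.

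The listed promoters with a Polycomb mark were those of Mir155hg, Mir1a-1 and Mir615 in NeuN+ nuclei and of Mir375, Mir196a-2 and Mir124a-3 in NeuN- nuclei. Mir155hg, the host gene of the inflammatory miR-155, was the only listed promoter with all 3 antibodies in NeuN+ nuclei. Its H3K27me3 window (chr16:84703367-84703767) had 11, 15.5 and 17.2 in WT, 5.07, 17.7 and 5.99 in Mutyh-/-, 7.93, 16.7 and 19.5 in Ogg1-/-, and 12, 14.5 and 10.4 in DKO. Its Suz12 window had 4.02, 16.8 and 18.8 in WT with a mean of 9.06, and its H3K4me3 window had 20.6, 13.7 and 23.7 in WT with a mean of 15.0. Knockouts overlapped WT with each antibody. Across the table, 2 of the 72 microRNA promoter peaks with H3K4me3 in NeuN+ (2.78%, Mir155hg and Mir6236) also carried an H3K27me3 peak, against 1.11% of all promoter peaks, and the same 2 carried Suz12, against 1.27%.

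The muscle microRNA Mir1a-1 had H3K27me3 at its promoter in NeuN+ nuclei (chr2:180388196-180388596), with 3.29, 2.21 and 6.89 in WT and a mean of 6.01. Mir375, known from pancreatic endocrine cells, had it in NeuN- nuclei (chr1:74901199-74901599), with 3.97, 2.49 and 4.61 in WT and a mean of 4.12. Both were thinly covered and their genotypes overlapped.

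Of 6 listed microRNAs of the Hox clusters, genes that pattern the body axis, 2 had a peak in any table (Mir196a-2 and Mir615) and these held 3 peaks. Mir196a-2 carried H3K27me3 in both fractions, at its promoter in NeuN- nuclei, with 2.65, 9.95 and 3.46 in WT and a mean of 7.39. Mir615, which lies in Hoxc5, carried Suz12 in NeuN+ nuclei (chr15:103015292-103015692), with 4.02, 12.9 and 0 in WT, 3.28, 5.18 and 10.1 in Mutyh-/-, 9.91, 14.1 and 12.2 in Ogg1-/-, and 5.95, 7.3 and 22.1 in DKO. The sensory microRNA Mir183 had H3K27me3 in both fractions and Suz12 in NeuN+ nuclei at windows 4526 to 5689 bp upstream of its start. Its Suz12 values were 18.8, 18.8 and 28.2 in WT, 0.82, 13.5 and 16.2 in Mutyh-/-, 5.95, 18.8 and 12.2 in Ogg1-/-, and 6.8, 15.7 and 18.1 in DKO. The Mutyh-/- and DKO libraries lay below all of WT, but the log2 fold change of -1.55 for Mutyh-/- was not a DER. The median over all peaks in that Mutyh-/- contrast was -0.63. Mutyh-/- replicate 1, the lowest library, is one of the pair that stood apart in this table.

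Peaks recurred in most tables for 3 symbols, Mir101c and Mir6236 in all 6 and Mir6356 in 5. All other symbols had peaks in at most 3 tables, and 102 of the 145 in only 1.

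The Mir101c peaks were a block of windows and not the microRNA gene itself. The 70 windows covered 30 distinct places in chr9:3000217-3038399, a stretch of 38183 bp next to the mature microRNA at chr9:3038680-3038698, at the centromeric end of the assembled chromosome. The stretch is 96.2% repeat-masked with 34.9% G and C. When shifted against itself by 50 to 600 bp, it matched itself best at 234 bp, at 71.4% of positions against a median of 31.3% over all shifts. This is the length known for the unit of the mouse major satellite, the tandem repeat around centromeres, but the stretch was not compared with a satellite consensus here. The word TTCTCATTT occurred 466 times in it on the plus strand and 0 times as its reverse complement, and was searched on both strands. All 70 Mir101c windows held it and 0 other microRNA windows did. Of all windows in a table, it was in 0.325% for H3K4me3 NeuN+ and 0.642% for NeuN-, 1.38% and 1.41% for H3K27me3, and 4% and 12.5% for Suz12. How reads that match several places were counted is not given in the sources used here, and whether windows of the block share reads was not tested, so values at its single windows are uncertain.

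The block took a larger share of the reads in NeuN- than in NeuN+ libraries with each antibody, as a description across tables scaled apart. The block was called separately in each table, as 10 windows over 4010 bp in NeuN- and 6 over 2406 bp in NeuN+ for H3K4me3, 3 over 1203 and 3 over 1203 for H3K27me3, and 29 over 12377 and 19 over 7990 for Suz12, with a mean value per window of 103 and 12.6, 147 and 40.5, and 34.6 and 11.3, in tables of unequal length. Its share of all reads in peaks had a median of 1.30% in H3K4me3 NeuN- (0.679% to 1.68%) and of 0.0117% in H3K4me3 NeuN+ (0% to 0.103%), and these ranges did not overlap. For H3K27me3 the medians were 1.10% (0.186% to 1.46%) and 0.307% (0% to 1.11%), and for Suz12 2.65% (2.02% to 3.13%) and 1.16% (0.889% to 2.6%), with overlapping ranges. The window at about chr9:3025355-3025755 was the highest microRNA window in all 6 tables, with means of 432 in H3K4me3 NeuN-, 297 in Suz12 NeuN-, 261 in H3K27me3 NeuN-, 88.0 in H3K27me3 NeuN+, 56.0 in Suz12 NeuN+ and 39.4 in H3K4me3 NeuN+. In H3K4me3 NeuN+ it was at 0 in 8 of 12 libraries and at 142, 147, 111 and 72.8 in the others, which came from WT, Mutyh-/- and DKO. In H3K4me3 NeuN- it had 203, 433 and 327 in WT, 484, 491 and 356 in Mutyh-/-, 373, 667 and 568 in Ogg1-/-, and 190, 573 and 521 in DKO. Values at 0 made up 51.4% of the block's values in H3K4me3 NeuN+ and 4.17% in H3K4me3 NeuN-. No knockout differed from WT in the block's share of reads by test: in 2-sided exact permutation tests of 3 libraries against 3, which cannot go below 0.1, the adjusted p was 1 over the 18 tests.

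**Figure D3:**
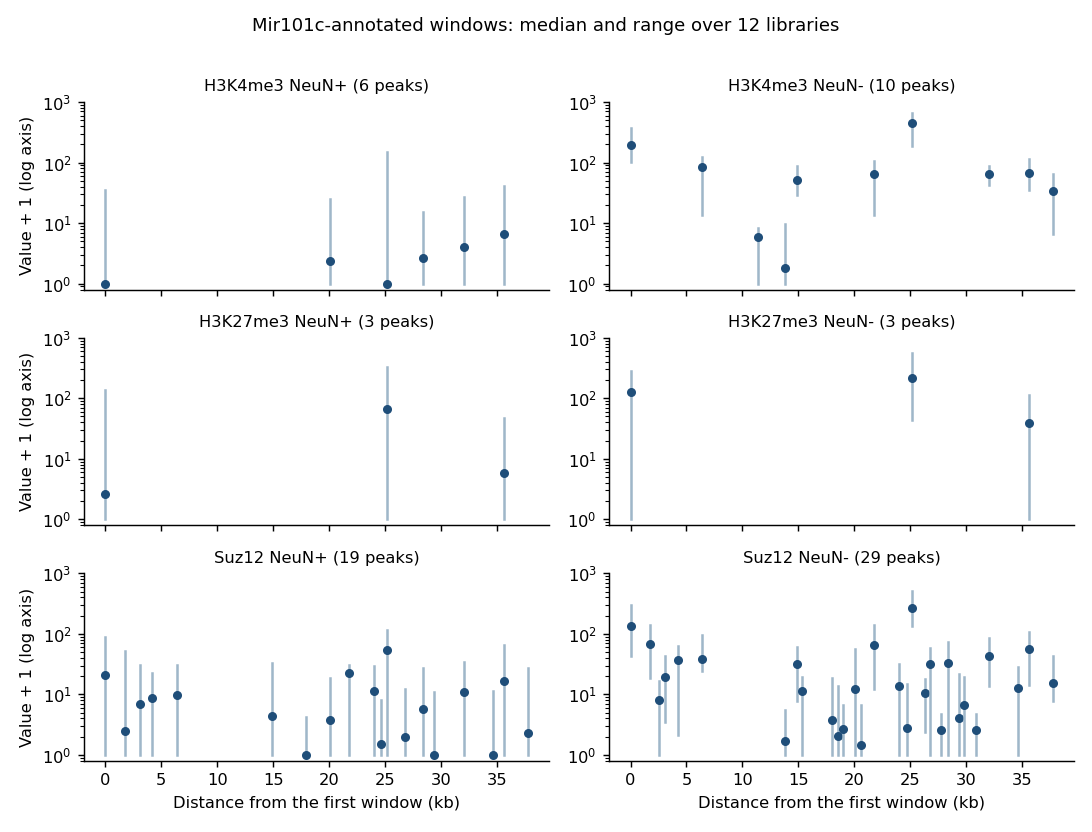
Median and range over 12 libraries of the value + 1 (log axis) at each Mir101c window, against its distance in kb from the first window of the block, in the 6 tables. The window near 25 kb has the highest mean in each table, a value not drawn. In H3K4me3 NeuN+ it is at 0 in most libraries, so its median point lies at the floor. NeuN- panels have fewer values at 0.

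Mir6236 was the only symbol with a promoter peak in all 6 tables. H3K27me3 in NeuN+ nuclei was 12, 13.3 and 7.76 in WT, 19.3, 21 and 22 in Mutyh-/-, 3.96, 12.5 and 33.9 in Ogg1-/-, and 12, 19.4 and 28.9 in DKO. The Mutyh-/- libraries all lay above WT, without passing the test (log2 fold change 0.88 ± 0.57 SE). Suz12 in NeuN+ nuclei was 5.36, 25.7 and 24.2 in WT, 2.46, 19.7 and 26.4 in Mutyh-/-, 0, 29.4 and 28.2 in Ogg1-/-, and 5.95, 26.1 and 15 in DKO, so replicate 1 was the lowest in every genotype. The mean level was 5.32 in H3K4me3 NeuN+, 3.3 in H3K4me3 NeuN-, 11.8 in H3K27me3 NeuN- and 9.07 in Suz12 NeuN-. No knockout passed the test in any of the 6 tables.

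The clearest knockout difference outside the block was at Mir6356. Its window (chr18:68691935-68692335) is distal intergenic, 47065 bp upstream of the microRNA, and 31.7% repeat-masked. H3K4me3 in NeuN- nuclei was 0, 1.58 and 2.36 in WT, 19, 28.5 and 11.4 in Mutyh-/-, 27.7, 9.58 and 17 in Ogg1-/-, and 10.2, 7.15 and 14.5 in DKO. All 9 knockout libraries lay above all 3 of WT, which held 0, 2 and 2 reads. Over all peaks of this table, knockout libraries lay wholly above or below WT in 7.51% of tests. The share of peaks with all 3 knockouts above WT was not computed. The median log2 fold change over all peaks was 0.22 in Mutyh-/-, 0.25 in Ogg1-/- and 0.05 in DKO. At the Mir6356 window the log2 fold changes were 3.24 ± 0.85 (SE) for Mutyh-/-, 3.1 for Ogg1-/- and 2.45 for DKO, and all 3 were DERs. They share the WT libraries, and their adjusted limma p was 0.215, 0.263 and 0.999. The DKO value was below the sum of both single-knockout effects by 3.89 ± 1.20 log2 units (limma adjusted p = 0.981).

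No other table had a call at the Mir6356 window. H3K27me3 in NeuN+ nuclei was 49.3, 45.4 and 50 in WT, 30.4, 65.3 and 99.9 in Mutyh-/-, 27.7, 36.6 and 85.3 in Ogg1-/-, and 17.5, 40.7 and 65.8 in DKO. In NeuN- nuclei it was 38.4, 9.95 and 17.3 in WT, 111, 46.5 and 15 in Mutyh-/-, 124, 20.4 and 84.7 in Ogg1-/-, and 62.4, 15.7 and 64.7 in DKO. The groups overlapped in both, and the NeuN- log2 fold changes of 1.05 to 1.62 had a standard error of 0.98. Suz12 had means of 55.3 in NeuN+ and 20.5 in NeuN- nuclei with overlapping groups, and H3K4me3 in NeuN+ nuclei had no peak there.

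Over all tables and knockouts, 34 of 1002 tests at microRNA peaks were DERs (3.39%), where 2.03% of all tests were; 22 were higher than WT (1.14% of all tests) and 12 lower (0.884%). Promoter peaks held 3 of them in 333 tests (0.901%), where 1.45% of tests at all promoter peaks were called. These pooled shares are not alike in make-up. Of the 111 microRNA promoter peaks, 72 were in H3K4me3 NeuN+, where 0.998% of tests over all peaks were called. The Mir101c block held 17 of 210 (8.10%, 10 higher and 7 lower) and the other microRNA peaks 17 of 792 (2.15%, 12 higher and 5 lower), the latter near the share over all peaks. By genotype, 19 of the 34 were in Ogg1-/- (2.24% of all peaks), 8 in Mutyh-/- (1.95%) and 7 in DKO (1.89%). The share of calls over all peaks differed between tables, so the shares are read by table. Libraries of a knockout lay wholly above or below WT in 75 of the 1002 tests, 52 above (3.69% of all tests) and 23 below (2.69%). By table these were 22 in H3K4me3 NeuN+ (4.83% over all peaks), 9 in H3K4me3 NeuN- (7.51%), 15 in H3K27me3 NeuN+ (9.13%), 3 in H3K27me3 NeuN- (7.71%), 11 in Suz12 NeuN+ (7.18%) and 15 in Suz12 NeuN- (11.6%). A single member passed an adjusted limma p of 0.05, the Suz12 NeuN+ window whose sequence is given for Mir101c, where 0.129% of all peaks in that contrast passed.

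**Figure D4:**
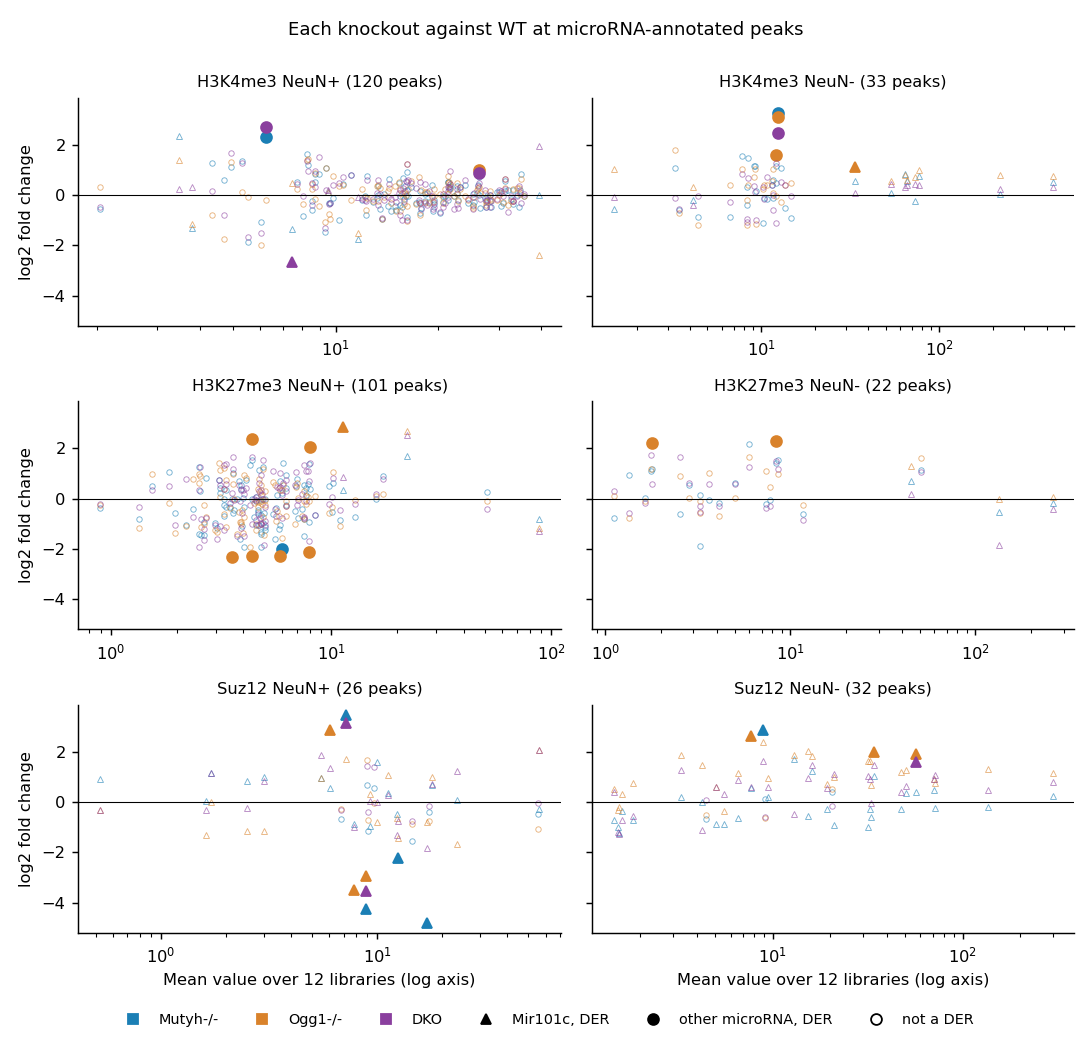
Log2 fold change of each knockout against WT at the microRNA peaks, against the mean value of the peak (log axis), in the 6 tables, with DERs filled and Mir101c windows as triangles. The filled points in both Suz12 panels are all triangles, whereas in both H3K27me3 panels nearly all are other microRNA peaks.

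H3K4me3 in NeuN+ nuclei had 5 DERs among 360 tests at microRNA peaks, and the background over all peaks was 0.998% of tests. Of these 4 were higher (0.499% of all tests) and 1 lower (0.499%), and 1 was in Mutyh-/- (0.863% of all peaks), 1 in Ogg1-/- (0.934%) and 3 in DKO (1.2%). Their adjusted limma p ran from 0.9998 to 0.9999. Beside Mir101c (1 DER), they fell at a pair of windows inside other genes. The window annotated to Mir450b (chrX:53020727-53021127), a member of an X-linked microRNA cluster, lies in the 3′ UTR of Hprt, a purine salvage enzyme, 26951 bp from the microRNA. Its values were 1.29, 1.95 and 0 in WT, 4.36, 4.59 and 25.4 in Mutyh-/-, 1.19, 1.03 and 0 in Ogg1-/-, and 9.02, 8.85 and 17.4 in DKO. Both genotypes without Mutyh lay wholly above WT and the Ogg1-/- libraries did not. The log2 fold changes were 2.29 ± 1.14 (SE) for Mutyh-/- and 2.69 ± 1.14 for DKO. The Mutyh-/- call was lost without WT replicate 1 or 3, Mutyh-/- replicate 2 or 3 or any DKO library, and with a pseudocount of 0.5, a mean of at least 5 or no repeat peaks. The DKO call was lost without WT replicate 3 or DKO replicate 3.

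The window annotated to Mir3093 (chr3:88200589-88200989), 14182 bp upstream of it in an exon of AI849053, had 27, 9.76 and 14 in WT, 20.7, 23.9 and 35 in Mutyh-/-, 28.6, 27.7 and 40 in Ogg1-/-, and 33.8, 25.7 and 29.6 in DKO. The Ogg1-/- libraries lay just above WT, while DKO overlapped it. Its log2 fold changes were 0.98 ± 0.44 (SE) for Ogg1-/- and 0.88 ± 0.44 for DKO, and the Ogg1-/- call was lost without WT replicate 2 or 3 or Ogg1-/- replicate 3. The DKO call held only without WT replicate 1 or Ogg1-/- replicate 2 or 3 and was lost without each of the other 9 libraries and with a pseudocount of 4.

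H3K4me3 in NeuN- nuclei had 5 DERs among 99 tests, against 2.86% over all peaks. All were higher than WT (2.21% of all tests higher, 0.652% lower), 1 in Mutyh-/- (2.97%), 3 in Ogg1-/- (3.24%) and 1 in DKO (2.39%), and 3 of the 5 were those at Mir6356. The promoter of Mir1893, which lies at the start of the chromatin gene Epc1, had 8.3, 12.6 and 0 in WT, 20, 5.19 and 9.75 in Mutyh-/-, 33.7, 7.18 and 11.4 in Ogg1-/-, and 21.4, 10.7 and 5.59 in DKO. Its groups overlapped, and the Ogg1-/- log2 fold change of 1.60 ± 0.80 (SE) was called (limma adjusted p = 0.999). The value ran from 0.43 (without WT replicate 3) to 2.32 with a library left out, and the call was lost without WT replicate 3, Mutyh-/- replicate 1, Ogg1-/- replicate 1 or 3 or DKO replicate 1 or 2, and with total reads, a pseudocount of 4, edgeR, DESeq2 or a fit that was not robust. The Mir101c promoter window (chr9:3037995-3038395) rose in Ogg1-/- from 18, 36.2 and 14.2 in WT to 30.7, 51.9 and 63.9, by 1.11 ± 0.52 (SE) log2 units (limma adjusted p = 0.999). That call was lost without WT replicate 1 or 3 or Ogg1-/- replicate 2 or 3, and with TMM, total reads, edgeR or DESeq2.

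H3K27me3 in NeuN+ nuclei had 8 DERs among 303 tests, against 3.54% over all peaks, 3 of them higher (1.4%) and 5 lower (2.14%). Of these 7 were in Ogg1-/- (3.73% of all peaks), 1 was in Mutyh-/- (3.8%) and 0 of 101 were in DKO (3.1%), where 0 microRNA peaks had an unadjusted limma p below 0.05. The adjusted limma p of the 8 DERs ran from 0.98 to 0.999. Names outside Mir101c and Mir466f-4 in the next sentences were chosen after their values were seen.

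The muscle microRNA Mir133a-2, a cluster partner of Mir1a-1, had H3K27me3 at a distal window 13396 bp away (chr2:180411775-180412175), with 4.38, 3.32 and 4.31 in WT and 0, 0 and 0 in Ogg1-/-. The WT mean was 3.92-fold a floor of 3 reads over the Ogg1-/- group, and the fitted log2 fold change was -2.32 ± 1.06 (SE). A window annotated to Mir34a, a p53 target, lay in an exon of the noncoding gene Gm13067 and was higher, with 0, 2.21 and 0 in WT and 6.94, 8.36 and 5.14 in Ogg1-/- (log2 fold change 2.38 ± 1.04 SE). The H3K4me3 window next to it overlapped between genotypes, at 11.6, 9.76 and 3.23 in WT and 7.14, 10.3 and 13.1 in Ogg1-/-. The Mir133a-2 call was lost without WT replicate 1 or 3 or with a pseudocount of 4, and the Mir34a call without WT replicate 1 or 3 or Ogg1-/- replicate 2. At these windows a value of 4 is only a few reads.

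The other H3K27me3 calls in Ogg1-/- outside the Mir101c block were at 4 windows outside promoters. A window annotated to Mir6405 lies in an intron of Pax2, a transcription factor of kidney and midbrain, and had 9.86, 6.64 and 3.45 in WT and 0, 2.09 and 0 in Ogg1-/- (log2 fold change -2.30 ± 1.04 SE). One of 9 windows annotated to Mir5127, between the genes Sall3 and Galr1 on chromosome 18, had 9.86, 18.8 and 16.4 in WT and 0.991, 2.09 and 6.17 in Ogg1-/- (log2 fold change -2.14 ± 0.89 SE). In both the Ogg1-/- libraries lay below all of WT, and the other 8 Mir5127 windows had no call. A Mir6238 window 613 kb from its microRNA had 8.76, 6.64 and 6.89 in WT and 0, 4.18 and 0 in Ogg1-/-, and a Mir8092 window rose in Ogg1-/- with overlapping groups (log2 fold changes -2.28 and 2.04). Leaving out WT replicate 1 ended the calls at Mir6405, Mir6238 and Mir8092, and WT replicate 2 those at Mir6405 and Mir5127. Ogg1-/- replicate 1 ended those at Mir6405, Mir5127 and Mir6238, replicate 2 that at Mir8092, and replicate 3 those at Mir6405, Mir6238 and Mir8092, while Mir6238 was also lost with edgeR and Mir8092 with DESeq2.

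In Mutyh-/-, the single call was at 1 of 11 windows annotated to Mir466f-4 (chr13:71464004-71464404), nearest in coding genes to the developmental factor Irx1. It had 8.76, 5.54 and 9.48 in WT, 0, 0 and 8.99 in Mutyh-/-, 0, 1.05 and 11.3 in Ogg1-/-, and 8.74, 10.7 and 7.22 in DKO. Mutyh-/- replicate 3 lay within WT and Ogg1-/- replicate 3 above it, while their other replicates were at or near 0 (log2 fold change for Mutyh-/- -2.02 ± 0.99 SE). The call was lost without WT replicate 1 or 3 or Mutyh-/- replicate 1 or 2, with a pseudocount of 4, with a mean of at least 5, with edgeR and with DESeq2.

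H3K27me3 in NeuN- nuclei had 2 DERs among 66 tests, both in Ogg1-/- and both at listed neuronal microRNAs, against 4.24% of all peaks in that contrast. Over the 3 contrasts 2.75% of all tests were called, 2.43% higher and 0.314% lower, and Mutyh-/- and DKO had 0 calls at microRNA peaks (1.88% and 2.12% of all peaks). The promoter of Mir124a-3 (chr2:180892729-180893129) had 1.32, 3.32 and 1.15 in WT, 18.3, 2.11 and 5.78 in Mutyh-/-, 13.1, 11.4 and 13.1 in Ogg1-/-, and 17.3, 0.925 and 12.5 in DKO. The Ogg1-/- libraries lay close together and above all of WT, whereas Mutyh-/- and DKO libraries spread across it. The log2 fold change in Ogg1-/- was 2.28 ± 1.13 (SE, limma adjusted p = 0.964). Over all peaks of this table the Ogg1-/- median was a log2 fold change of 0.58 as scaled by the authors and of 0.24 after TMM scaling, and the call was lost with values scaled to total reads, with a pseudocount of 0.5, with edgeR, and without WT replicate 1 or 3, any Ogg1-/- replicate or DKO replicate 3.

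Mir7-2, whose miR-7a is known from neurons and endocrine cells, was called at a distal window 2789 bp upstream (chr7:78885088-78885488). It had 0, 0 and 0 in WT, 0, 4.22 and 1.16 in Mutyh-/-, 2.63, 1.63 and 9.54 in Ogg1-/-, and 0, 0 and 2.27 in DKO. The Ogg1-/- mean was 4.17-fold a floor of 3 reads over the WT group. The fitted log2 fold change was 2.22 ± 1.01 (SE, limma adjusted p = 0.964), and the call was lost without any 1 WT library, without Ogg1-/- replicate 3 and with DESeq2. The H3K27me3 window of Mir129-2 in the same nuclei had a mean of only 1.35 and no call.

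**Figure D5:**
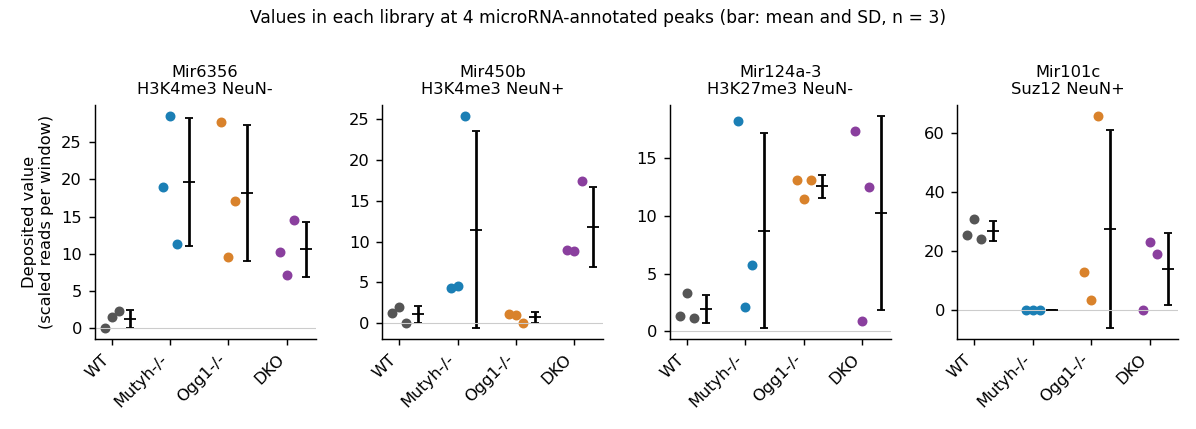
Values in each library, with mean and SD (n = 3), at Mir6356 in H3K4me3 NeuN-, Mir450b in H3K4me3 NeuN+, Mir124a-3 in H3K27me3 NeuN- and the Mir101c window in Suz12 NeuN+. WT is lowest at Mir6356, Mutyh-/- and DKO are highest at Mir450b, and the Mutyh-/- libraries are at 0 at Mir101c.

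Suz12 in NeuN+ nuclei had 9 DERs among 78 tests, against 3.53% over all peaks, 3 of them higher (1.33%) and 6 lower (2.19%). Of these 4 were in Mutyh-/- (4.9% of all peaks), 3 in Ogg1-/- (3.61%) and 2 in DKO (2.06%). As scaled by the authors, the median log2 fold change over all peaks was -0.63 in Mutyh-/-, -0.57 in Ogg1-/- and -0.06 in DKO. After TMM scaling these medians were -0.08, -0.09 and 0.09. With the replicate number as a block, 10 of 78 tests at microRNA peaks were called (12.8%) where 9.98% of all tests were. In Mutyh-/-, where libraries of the same number were correlated, the block gave 5 of 26 and 12.5% of all peaks. All 9 were Mir101c windows (9 of 57 tests) and 0 of 21 tests at other microRNA peaks were called. Of all peaks repeat-masked over at least 50% of their length, 7.82% of tests were called in this table. The largest difference was at chr9:3035854-3036254, with 25.5, 30.7 and 24.2 in WT, 0, 0 and 0 in Mutyh-/-, 12.9, 3.53 and 65.8 in Ogg1-/-, and 0, 23 and 18.9 in DKO. The WT mean was 28.0-fold a floor of 3 reads over the Mutyh-/- group. The fitted log2 fold change was -4.79 ± 1.17 (SE, limma adjusted p = 0.0344), and with the replicate number as a block the adjusted p was 0.0297. Without Mutyh-/- replicate 1, the library that stood apart, the adjusted p was 0.0399. The adjusted p did not stay below 0.05 after TMM or total-read scaling, with either other pseudocount, with edgeR, or without any 1 WT library, Mutyh-/- replicate 2 or 3, Ogg1-/- replicate 3, or DKO replicate 2 or 3. It ran from 0.017 to 0.823 over the alternatives that tested this window, whereas the unadjusted call held in each.

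The same place went other ways with other antibodies and nuclei. H3K27me3 in NeuN+ nuclei had 3.29, 3.32 and 0 in WT, 37.5, 0 and 0 in Mutyh-/-, and 46.6, 6.27 and 19.5 in Ogg1-/-, higher in Ogg1-/- by 2.86 ± 0.96 (SE) log2 units (limma adjusted p = 0.98), a call lost without Ogg1-/- replicate 1 and with edgeR or DESeq2. Suz12 in NeuN- nuclei had 13.4, 23.2 and 37.1 in WT, 72.7, 16.8 and 21.6 in Mutyh-/-, 92.9, 69.9 and 104 in Ogg1-/-, and 39.5, 93.5 and 93.2 in DKO. There Ogg1-/- and DKO lay above all of WT, by 1.91 ± 0.79 (SE) and 1.59 log2 units (limma adjusted p = 0.333 and 0.665). The Ogg1-/- call was lost without Ogg1-/- replicate 3 and with total reads or DESeq2. The DKO call was lost without WT replicate 1 or 2, Ogg1-/- replicate 2 or 3 or DKO replicate 2 or 3, and with TMM, total reads, a pseudocount of 0.5, edgeR, DESeq2 or a fit that was not robust.

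Neighbouring windows of the block in Suz12 NeuN+ moved in both directions. At chr9:3015132-3015532 all knockouts lay below WT, with 25.5, 22.8 and 32.2 in WT, 0, 0 and 2.03 in Mutyh-/-, 6.94, 0 and 4.7 in Ogg1-/-, and 11.9, 0 and 0 in DKO (log2 fold changes -4.25, -2.95 and -3.55, limma adjusted p = 0.359, 0.909 and 0.999). At chr9:3028619-3029019 the WT libraries were at 0, 0 and 0, with 8.2, 8.29 and 14.2 in Mutyh-/- and 11.9, 1.04 and 26 in DKO. The Mutyh-/- and DKO means were 8.35-fold and 10.6-fold the floor over WT. DKO replicate 2 lay below that floor (1.22). At chr9:3003304-3003704 Ogg1-/- had 0, 1.18 and 0 against 29.5, 11.9 and 6.71 in WT (log2 fold change -3.48 ± 1.27 SE, limma adjusted p = 0.731). Of the 9 calls in this table, 4 were lost with edgeR, 3 of these also with DESeq2 and 2 of these also with TMM or total reads. The Ogg1-/- call at the window starting at 3015132 was lost without Ogg1-/- replicate 2 and the DKO call at 3028619 without DKO replicate 3. The Mutyh-/- call at 3024226 was lost without WT replicate 1 or 3, Mutyh-/- replicate 2, Ogg1-/- replicate 3 or any DKO library. The Ogg1-/- call at 3020315 was lost without WT replicate 1 or 2 or Ogg1-/- replicate 2.

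Suz12 in NeuN- nuclei had 5 DERs among 96 tests, all in the block, against 7.16% over all peaks and 8.84% of peaks masked over at least 50%. All 5 were higher (5.02% of all tests higher, 2.14% lower), 1 in Mutyh-/- (3.53%), 3 in Ogg1-/- (10.6%) and 1 in DKO (7.37%). In Ogg1-/-, 11 of the 29 Mir101c windows lay wholly above WT, where 14.4% of all peaks in that contrast did. The median log2 fold change of the block was 1.17, and that of all peaks in the contrast was 0.52. These values depend on the scaling: with total reads the median of all peaks was -0.15 and 0 microRNA windows were called in Ogg1-/- and 0 in DKO, and the block held 2.61% of the reads in peaks in WT and 2.64% in Ogg1-/-. In Mutyh-/- the window at chr9:3015535-3016312 had 16.5, 10.6 and 15.8 against 2.24, 1.66 and 0 in WT (log2 fold change 2.88 ± 1.23 SE, limma adjusted p = 0.996), a call lost without WT replicate 3 and with edgeR.

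The comparison of DKO with the sum of both single knockouts found 0 microRNA peaks at an adjusted limma p below 0.05 and 11 of 334 at an unadjusted p below 0.05, with 0.871% of all H3K4me3 NeuN+, 2.94% of H3K4me3 NeuN-, 3.82% of H3K27me3 NeuN+, 2.41% of H3K27me3 NeuN-, 4.77% of Suz12 NeuN+ and 5.45% of Suz12 NeuN- peaks at that level. The 11 were Mir6356, Mir7238 and Mir101c in H3K4me3 NeuN-, Mir466f-4, Mir6238 and Mir8110 in H3K27me3 NeuN+, Mir7-2 in H3K27me3 NeuN-, and 4 Mir101c windows with Suz12. At Mir466f-4 and Mir6238 the DKO values lay with those of WT, and exceeded the sum of the single-knockout effects by 3.76 log2 units in both.

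Knockout effects were compared between NeuN+ and NeuN- nuclei at the 52 microRNA peaks that overlapped one to one (24 H3K4me3, 7 H3K27me3, 21 Suz12). Of 156 tests, 0 passed an adjusted limma p of 0.05 and 8 an unadjusted p of 0.05, 2 for H3K4me3 (1.94% of all tests), 0 for H3K27me3 (1.61%) and 6 for Suz12 (5.04%). The Suz12 window of Mir101c at chr9:3035854-3036254 was the clearest for Mutyh-/-, with a difference of -5.17 log2 units (limma adjusted p = 0.506). At promoters the fractions shared peaks as others did: 17 of 72 microRNA promoter peaks with H3K4me3 in NeuN+ (23.6%) had a NeuN- peak, against 24.6% of all promoter peaks.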

How the data were processed

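H3K4me3, H3K27me3 and Suz12 were measured by ChIP-seq in NeuN+ and NeuN- nuclei, 96 samples in all, of which the 72 pull-down libraries have a column in 6 tables and the 24 input libraries were not used here. Per the labels and the study's methods, the authors checked reads with FastQC 0.11.9, aligned them with Bowtie2 2.3.5.1 to GRCm38/mm10, processed them with SAMtools, called peaks with epic2 (SICER), kept those found in at least 2 of 3 replicates, counted reads with DiffBind 3.10.1 and annotated peaks with ChIPseeker 1.36; edgeR 3.42.4 is named for the differential step. The treatment of duplicates, multi-mapping reads and blacklisted regions is not given in the sources used here. The deposited values are a signal, reads in a 401 bp window (3 Mir101c windows are wider) divided by a factor per library; 100% of values were whole multiples of 1 read (tolerance 1e-06), so whole reads were recovered. Antibody and fraction of a column come from its table, genotype and replicate from its name.

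Values were fitted as log2(value + 1) in limma 3.58.1 (R 4.3.3; trend, robust), 12 libraries per table with genotype as the only term, over all peaks, with Benjamini-Hochberg adjustment per contrast. A DER had p below 0.05 and a log2 fold change beyond 0.5 in size. The design had planned an edgeR count test should the tables hold raw counts; they did not, so edgeR 4.0.16 and DESeq2 1.42.0 on the recovered reads were alternatives, beside TMM, total-read scaling, pseudocounts of 0.5 and 4, a mean filter of 5, no repeat peaks, a replicate block and each library left out. Fits were tested on simulated data. Correlations of deviations between knockout and WT libraries of the same replicate number were 0.388, 0.186 and 0.119 in Suz12 NeuN+ for Mutyh-/-. In no other contrast were all 3 this high, but these libraries were not all each other's best match. Same-number libraries matched each other best in H3K4me3 NeuN- (Mutyh-/-, DKO), H3K27me3 NeuN+ (Ogg1-/-) and H3K27me3 NeuN- (Mutyh-/-, DKO). Their correlations there were only 0.023 to 0.153. Labels do not say that replicates are separate animals, so p-values measure the spread between these pooled libraries. A floor was 3 reads over a group at 0, and covers the counting error of that group only, while the other group entered as its mean. Python 3.11.15, pandas 2.3.3, scipy 1.17.1 and pysam 0.24.0 were used.

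The members and gene lists were chosen with earlier results of these data known. Named were listed microRNAs with promoter peaks, the smallest-p DER per table and contrast, any member with an adjusted p below 0.05, the highest promoter and other peak per table, and symbols in at least 4 tables; names beyond these were chosen after their values were seen. The sequence of 1 window is not reported here.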

Additional observations from a re-analysis of the deposited data

How the results depend on the processing

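The counts of DERs at microRNA peaks depended on the scaling and on single libraries. In H3K4me3 NeuN+ the 5 DERs became 15 with TMM and with total reads, 20 with edgeR on the recovered reads, 16 with DESeq2, and 3 with a mean of at least 5 or without repeat peaks; all peaks moved with them, from 0.998% of tests to 4.24% with TMM, 4.09% with total reads, 3.95% with edgeR and 2.89% with DESeq2. In H3K4me3 NeuN- the 5 became 3 with total reads, edgeR and DESeq2 (2.86% of all tests became 2.92%, 3.2% and 3.96%) and 11 with a replicate block (5.27%). In H3K27me3 NeuN+ the 8 became 4 with a mean of at least 5. That filter leaves windows of low value untested, and shares over all peaks are not given for it or for the pseudocounts. In H3K27me3 NeuN- the 2 became 4 with TMM (2.75% of all tests became 3.81%), 1 with total reads (1.37%), a pseudocount of 0.5 or a mean of at least 5, and 5 with a replicate block (5.63%). In Suz12 NeuN+ the 9 became 0 without repeat peaks (3.53% of all tests became 3.12%), and in Suz12 NeuN- the 5 became 2 with TMM (7.16% of all tests became 6.62%), 1 with total reads (7.48%), 1 with edgeR (5.98%), 2 with DESeq2 (6.13%), 9 with a replicate block (8.44%) and 0 without repeat peaks (5.61%). The repeat-peak alternative, chosen after seeing the data, removes the Mir101c windows by construction; for the other changes the cause was not tested.

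With each library left out in turn, the counts ran from 3 to 10 in H3K4me3 NeuN+ (10 without Ogg1-/- replicate 2), 3 to 13 in H3K4me3 NeuN- (13 without WT replicate 2), 5 to 12 in H3K27me3 NeuN+ (5 without Ogg1-/- replicate 1), 0 to 5 in H3K27me3 NeuN- (0 without WT replicate 3 or Ogg1-/- replicate 3), 8 to 10 in Suz12 NeuN+ and 2 to 9 in Suz12 NeuN- (2 without Ogg1-/- replicate 2, 9 without Mutyh-/- replicate 1). Shares over all peaks are not given for these refits. The counts therefore describe only how far calls moved, and whether all peaks moved with them was not tested. The number of members with an adjusted p below 0.05, 1 as reported, was 0 with TMM, total reads, either pseudocount, edgeR and no repeat peaks, 2 with DESeq2 and 2 with the replicate block, and 0 to 1 with a library left out (0 without any WT library, Mutyh-/- replicate 2 or 3, Ogg1-/- replicate 3, or DKO replicate 2 or 3). With the block, Mir6356 in Mutyh-/- reached an adjusted limma p of 0.0375. In that contrast libraries of the same number matched each other best, but with correlations of deviations of only 0.087, 0.023 and 0.023. The labels do not say what replicates of the same number share.

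The share of member DERs that were higher than WT was 64.7% as reported and 53.8% with DESeq2; in Suz12 NeuN+ it was 33.3% as reported, 50% with TMM, total reads or edgeR and 62.5% with DESeq2, in H3K4me3 NeuN+ 80% as reported, 66.7% with TMM, 65% with edgeR and 50% with DESeq2, in H3K27me3 NeuN- 100% as reported, 75% with TMM and 66.7% with DESeq2, and in H3K27me3 NeuN+ 37.5% as reported, 27.3% with total reads and 14.3% with DESeq2. Of the 34 named log2 fold changes, none reversed in 726 refits, 579 kept their call and 147 lost it. These leave out refits that did not test a window, as those without repeat peaks did not test Mir101c. The calls kept in every refit that tested them were the 3 of Mir6356 and, in Suz12 NeuN+, those of Mir101c at 3015132, 3028619 and 3035854 for Mutyh-/- and at 3003304 for Ogg1-/-. The non-additive comparison gave 0 members under every alternative. The comparison of fractions gave 0 except for 1 with edgeR and 2 with DESeq2, and was not run without repeat peaks. Single windows hold few reads, so small differences at most members were not detectable at this depth.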

Other observations

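Some microRNA windows that carried Polycomb marks belong to immune or X-linked genes. Windows annotated to Mir6546 lie in Fcgr3, an immunoglobulin receptor of myeloid cells, and carried H3K27me3 in NeuN+ nuclei with 11, 17.7 and 14.6 in WT and a mean of 16.0, beside a pair of Suz12 windows with means of 6.77 and 9.63. Outside the Mir101c block, 5 microRNA promoter windows had Suz12 in NeuN+ nuclei, the pair at Mir6546 among them. Of the 5, 3 also had H3K27me3 (60%, at Mir155hg, Mir6236 and Mir6546), where 24% of all Suz12 promoter peaks did. Mir6236 had a peak in all 6 tables, and 5 windows are too few to compare the shares. Mir351, a microRNA of the X-linked cluster that also holds Mir450b, carried H3K27me3 at its promoter in NeuN+ nuclei, with 4.38, 6.64 and 1.72 in WT and a mean of 4.54. The genotypes overlapped at each of these windows except that of Mir6236 with H3K27me3. There the Mutyh-/- libraries all lay above WT without passing the test, as given above.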
